A study of Mus musculus with 16 samples.

Results

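The integrated stress response genes described here are 10 genes chosen by name, *Eif2ak1*, *Atf4*, *Ddit3*, *Trib3*, *Chac1*, *Asns*, *Psat1*, *Phgdh*, *Sesn2* and *Ddit4*. All 10 were among the 15386 genes of the RNA-seq table, and 9 were among the 13490 genes of the m6A table, from which *Chac1* was missing. The RNA-seq compared 3 libraries of control CFU-E cells with 3 libraries labelled Kit low *Mettl3* knockout CFU-E, called here *Mettl3*-deficient Kit-low CFU-E, and the m6A experiment compared 2 immunoprecipitated (IP) with 2 input libraries of control CFU-E. CFU-E are erythroid progenitors, sorted here from mouse bone marrow, and Kit is the stem cell factor receptor that marks them. The deficient mice were Mettl3 fl/fl EpoR Cre/–, on a C57BL/6 background, of both sexes and 10 to 16 weeks old. METTL3 is the enzyme that writes m6A, and the Cre is driven from the erythropoietin receptor gene, which is active in erythroid cells and also in the macrophages of erythroblastic islands. The genotype of the control mice is not given in the sources used here. The RNA-seq groups differed both in genotype and in the Kit gate by which the cells were sorted, so these cannot be told apart, and no control cells with low Kit were analysed here. The 6 ProE samples among the 16 of the study were not analysed here.

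In the integrated stress response, kinases such as the heme-regulated kinase HRI (encoded by *Eif2ak1*), PERK, GCN2 and PKR phosphorylate the initiation factor eIF2. General translation then slows while the mRNA of the transcription factor ATF4 is translated more, so that the level of *Atf4* mRNA is not a measure of ATF4 protein. ATF4 binds composite elements together with C/EBP proteins and switches on genes for amino acid uptake and synthesis, for inhibitors of the growth kinase complex TORC1 and, with the factor CHOP (encoded by *Ddit3*), for feedback and death, and HRI is the eIF2 kinase known for matching globin synthesis to heme in erythroid cells.

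The composite element of C/EBP and ATF factors was searched for as TGATGNAAN, or NTTNCATCA on the opposite strand, in the RefSeq promoter windows of GRCm38.p6, which run from 250 bases before to 50 bases after each annotated start. It was found in 3 of the 10 genes, against 4.50% of the 27025 genes with a window (3.95% of 32851 windows). The matches are printed 5′ to 3′ on the strand of the gene with 10 bases on either side, to show what the 3 genes share, and the capitals mark the 9 matching bases.
*Chac1*: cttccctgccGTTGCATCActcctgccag
*Trib3*: ttagctcaggTTTACATCAgccgggcggg
*Asns*: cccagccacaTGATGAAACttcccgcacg
The *Chac1* stretch lies at chr2:119351038-119351066 on the plus strand, in no annotated exon, with the match 194 to 186 bases before the RefSeq start. The *Trib3* stretch lies at chr2:152344029-152344057 on the minus strand, with the match at bases 14 to 22 of the RefSeq transcript and before the start in GENCODE. The *Asns* stretch lies at chr6:7693214-7693242 on the minus strand, with the match 23 to 15 bases before the RefSeq start but inside a GENCODE first exon of the gene. The match is in the orientation of the gene in *Asns* and in the opposite orientation in *Chac1* and *Trib3*. A match of letters is a description and not a binding site, and the windows of the other 7 genes held none.

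Of the 9 genes with enough counts to be tested in the RNA-seq, 3 were higher in the libraries labelled *Mettl3*-deficient Kit-low CFU-E (*Trib3*, *Sesn2* and *Eif2ak1*), 1 was lower (*Phgdh*) and 5 were not called. A gene was called when its fold change was at least 1.5 and its Benjamini-Hochberg adjusted p-value in edgeR's quasi-likelihood test was under 0.05. Over all 11979 genes tested, 12.1% were called higher (1453) and 9.83% lower (1178). The median log2 fold change was 0.42 over the 9 genes and 0.0080 over all genes. In 6 of the 9 every deficient library lay above every control library and in 2 every one lay below, while such separation was seen in 47.5% of all tested genes. The steepest change was the switch of *Trib3* from near silence, and the genes of serine and asparagine synthesis did not move together.

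**Figure D1:**
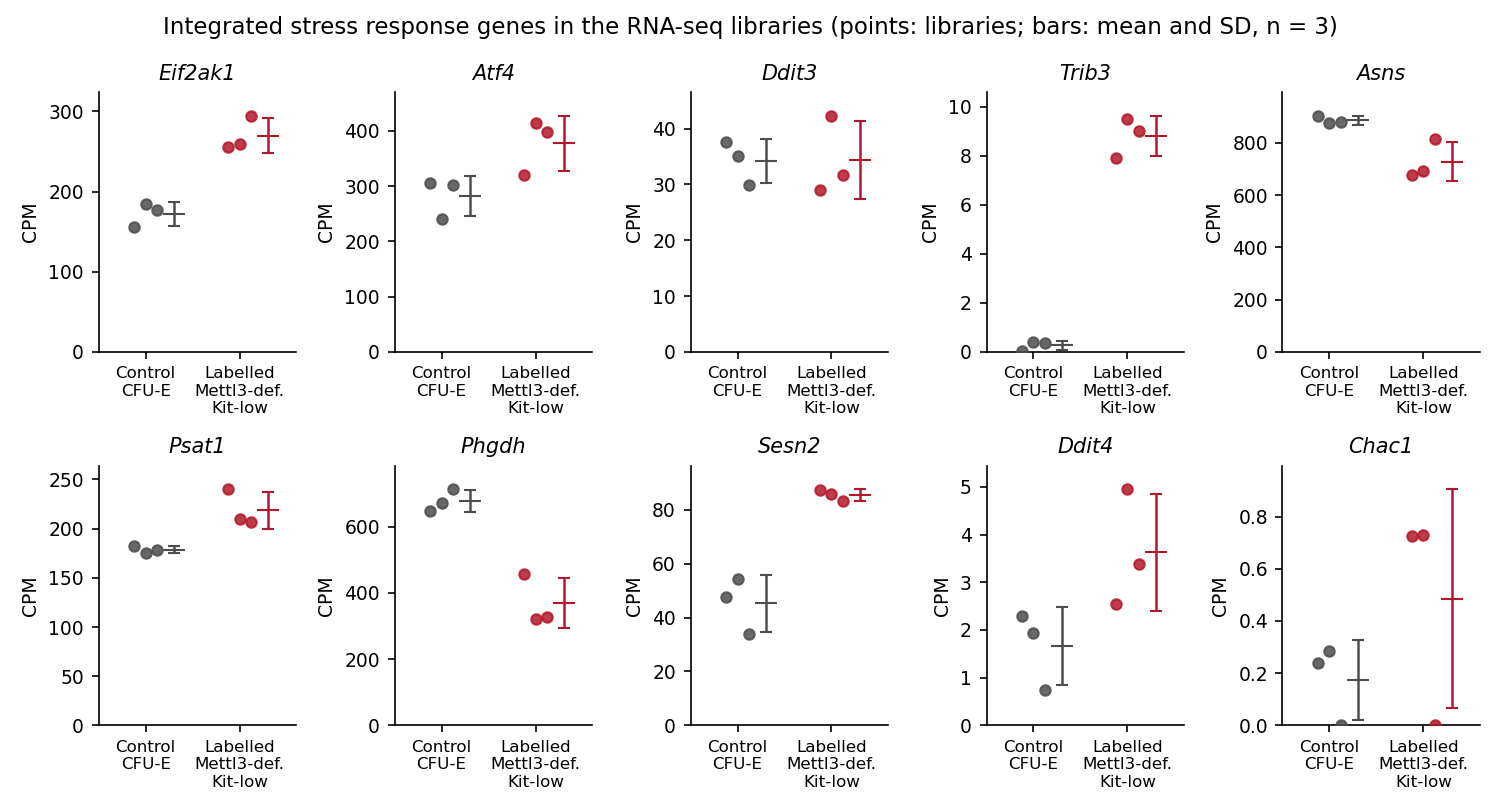
Level of each of the 10 genes in CPM (linear axes from 0) in the 3 control CFU-E libraries (grey) and the 3 libraries labelled Mettl3-deficient Kit-low CFU-E (red), with points for libraries and bars for mean and SD. The groups lie apart for Trib3, Sesn2, Eif2ak1 and Phgdh, overlap for Ddit3, and Chac1 stayed under 1 CPM in every library.

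The RNA-seq libraries held 17429262 to 21329242 counts and the m6A libraries 19421059 to 37142742, and levels are given as counts scaled to the same library total (CPM, with edgeR's TMM factors). The variation between replicates beyond counting error, which edgeR gives as the biological coefficient of variation, came to 19.1% for RNA-seq and 21.9% for m6A. *Mettl3* mRNA itself was 123 ± 7.43 CPM in control and 117 ± 9.52 CPM in the deficient libraries (mean ± SD, n = 3, with a log2 fold change of -0.07 ± 0.10 SE and an adjusted p of 0.63 by edgeR). This level over the whole gene does not check the labels, since a transcript that lacks the deleted part could still be counted, which was not tested. The paper, by contrast, reports *Mettl3* mRNA (by qRT-PCR) and protein as absent from erythroid cells of these mice. *Kit* fell from 598 ± 47.1 to 55.2 ± 12.4 CPM (n = 3), which is the gene product the cells were sorted on. Erythroid markers summed to 2530 to 2657 CPM in control and 4538 to 5513 CPM in deficient libraries, and 6 of 9 were called higher, among them *Alas2* and *Hbb-bs*. Markers of macrophages summed to 8.69 to 13.7 and 7.82 to 9.39 CPM, of granulocytes to 25.0 to 38.3 and 12.4 to 21.3, of lymphocytes to 2.86 to 3.26 and 2.44 to 3.02, and of megakaryocytes to 13.1 to 20.4 and 20.0 to 25.9, in that order of groups. The macrophage marker *Adgre1* had 2 counts in each control library and 0 in the deficient ones, while *Cd68*, *Csf1r* and *C1qb* overlapped between the groups. *C1qa* was called lower (log2 fold change -1.91), and *Vcam1* lay below control in every deficient library without being called. The granulocyte marker *Mpo* was called lower (-1.97), while *Prtn3* overlapped. Of the megakaryocyte markers *Itga2b* (1.62) and *Gp9* (1.31) were called higher, *Vwf* overlapped and *Pf4* lay below without being called. The part of erythroid maturation or of these other cells in the changes below was not tested, and in bulk libraries fewer cells of a type and less RNA per cell cannot be told apart. Nothing in the labels says that replicates came from separate mice, so the p-values measure the spread between these samples only.

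*Eif2ak1*, the kinase HRI, was at 155, 184 and 177 CPM in control CFU-E and at 255, 260 and 295 CPM in the deficient libraries. Every deficient library was above every control library. It rose 1.57-fold (log2 fold change 0.65 ± 0.095 SE, 95% CI 0.44 to 0.86, adjusted p = 0.00058 by edgeR). The estimate was just over the threshold and fell to 0.57 without control replicate 1, which ended the call, and a test against a fold of 1.5 (edgeR's glmTreat) gave an adjusted p of 0.49. The gene lies at chr5:143817788-143904251 on the plus strand, and 11.6% of its exonic bases overlap *Aimp2* or *Ankrd61* on the other strand. *Aimp2* had a log2 fold change of -0.20 ± 0.091 SE (adjusted p = 0.11 by edgeR). Any part of the reads of either gene in the *Eif2ak1* counts was not tested.

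*Atf4*, at chr15:80255184-80257541 on the plus strand, was at 305, 240 and 303 CPM in control and at 320, 415 and 397 CPM in the deficient libraries. The groups did not overlap, but the lowest deficient library, replicate 1, was close to the highest control. The log2 fold change was 0.42 ± 0.12 SE (95% CI 0.15 to 0.69, adjusted p = 0.023 by edgeR), a 1.34-fold difference that passed the p-value and not the fold, so *Atf4* was not called. The 3 tested genes with the pattern over the 6 libraries most like that of *Atf4*, by the root mean square difference of centred log2 CPM, were *Wdr26* (0.044), *Zfp511* (0.052) and *Irak1* (0.060).

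*Ddit3*, which encodes CHOP, did not separate the groups. It was at 37.6, 35.1 and 29.8 CPM in control and at 29.1, 42.3 and 31.7 CPM in the deficient libraries, of which replicate 2 was the highest and replicate 1 the lowest of all 6. The log2 fold change was 0.0069 ± 0.17 SE, with a 95% CI of -0.36 to 0.38 that leaves out a 1.5-fold change in either direction (adjusted p = 0.98 by edgeR). The sign of so small an estimate changed in 5 of the 15 alternatives. The gene lies at chr10:127290774-127296288 on the plus strand, and 4.73% of its exonic bases overlap *Mars* or *Gm4189* on the other strand. *Mars* had a log2 fold change of -0.33 ± 0.096 SE (adjusted p = 0.022 by edgeR), and any part of its reads in the *Ddit3* counts was not tested.

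*Trib3*, the pseudokinase that restrains ATF4 and AKT signalling, had the largest log2 fold change of the 9 genes. It had 1, 7 and 6 counts in the control libraries (0.048, 0.40 and 0.34 CPM) and 152, 196 and 173 counts in the deficient ones (7.90, 9.52 and 9.02 CPM). All 3 deficient libraries were far above all controls, in which the gene was close to undetected. The rise was 33.7-fold (log2 fold change 5.08 ± 0.50 SE, 95% CI 3.96 to 6.19, adjusted p = 5.2e-05 by edgeR), and the few control counts make its size less certain than its direction. It was called in all 15 alternatives, with log2 fold changes of 4.54 to 5.51. *Trib3* lies at chr2:152337422-152344032 on the minus strand, and its element is printed above.

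*Chac1*, which encodes a glutathione-degrading enzyme and carries the element as well, had 5, 5 and 0 counts in control and 14, 15 and 0 counts in the deficient libraries. It was too low to be tested. In replicate 3 of either group it was not detected, which allows 3 counts or 0.172 CPM in control and 0.156 CPM in the deficient library (counting error only). The gene lies at chr2:119351229-119354381 on the plus strand.

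The amino acid enzymes differed in direction. *Phgdh*, which catalyses the first step of serine synthesis, was at 648, 673 and 714 CPM in control and at 458, 322 and 329 CPM in the deficient libraries, all of them lower. It fell by 0.87 on the log2 scale (± 0.13 SE, 95% CI -1.16 to -0.59, adjusted p = 0.00058 by edgeR), which is 1.83-fold, while glmTreat against a fold of 1.5 gave an adjusted p of 0.059. The gene lies at chr3:98313170-98339990 on the minus strand, and reads of its pseudogene *Phgdh-ps1* on chromosome 7 could be shared with it in the counting.

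*Psat1*, which catalyses the next step of serine synthesis, was at 182, 175 and 179 CPM in control and at 240, 209 and 206 CPM in the deficient libraries. These were all higher, with a log2 fold change of 0.29 ± 0.085 SE (95% CI 0.10 to 0.48, adjusted p = 0.024 by edgeR). *Asns*, the asparagine synthetase gene and the third with the element, was at 905, 875 and 880 CPM in control and at 678, 692 and 816 CPM in the deficient libraries. Here all deficient libraries were lower, and the log2 fold change was -0.28 ± 0.084 SE (95% CI -0.47 to -0.09, adjusted p = 0.026 by edgeR). Neither gene reached the 1.5-fold threshold, and the 2 enzymes of serine synthesis had opposite signs. *Psat1* lies at chr19:15904678-15947337 and *Asns* at chr6:7675169-7693254, both on the minus strand.

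Both TORC1 inhibitors were higher in every deficient library than in any control, and one was called. *Sesn2*, which relays leucine scarcity to TORC1, was at 47.8, 54.4 and 33.8 CPM in control and at 87.5, 85.7 and 83.1 CPM in the deficient libraries. The deficient libraries were tightly grouped while control replicate 3 was the lowest. It rose 1.88-fold (log2 fold change 0.91 ± 0.16 SE, 95% CI 0.56 to 1.27, adjusted p = 0.0016 by edgeR), with an adjusted p of 0.077 in glmTreat against a fold of 1.5. *Ddit4*, which encodes REDD1, was low, at 2.30, 1.94 and 0.744 CPM in control and 2.55, 4.95 and 3.39 CPM in the deficient libraries. Its log2 fold change was 1.12 ± 0.48 SE (95% CI 0.059 to 2.18, adjusted p = 0.097 by edgeR), an interval too wide to tell a small from a 4-fold difference. *Sesn2* lies at chr4:132492032-132510501 and *Ddit4* at chr10:59949669-59951834, both on the minus strand.

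**Figure D2:**
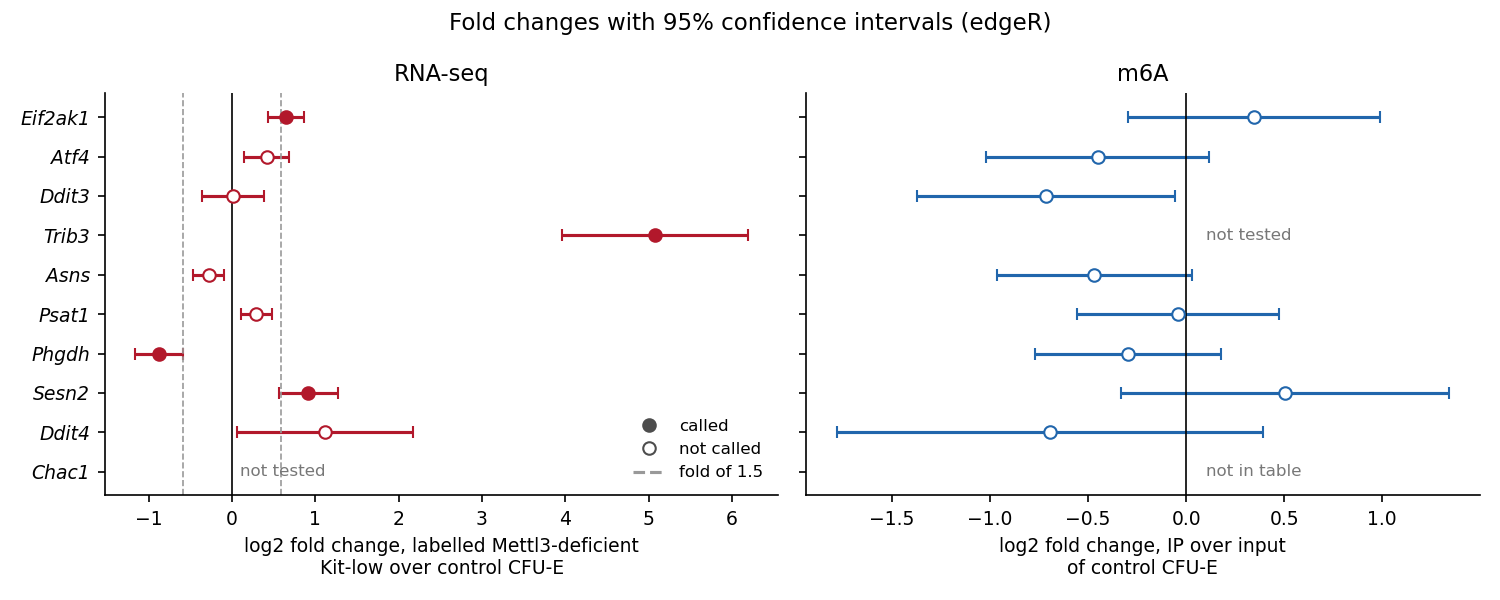
Log2 fold changes with 95% confidence intervals from edgeR, at left the libraries labelled Mettl3-deficient Kit-low CFU-E over control CFU-E (n = 3 and 3) and at right m6A IP over input (n = 2 and 2), with filled points for called genes and dashed lines at a fold of 1.5. Trib3 stands at 5.08 in the RNA-seq while the other genes lie between -0.87 and 1.12, and no gene is called in the m6A comparison.

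Per kilobase of the longest coding transcript in GENCODE, the level in control CFU-E was highest for *Asns* (440 CPM per kb), followed by *Phgdh* (358), *Atf4* (164), *Psat1* (68.3), *Eif2ak1* (39.8), *Ddit3* (38.4), *Sesn2* (13.0), *Ddit4* (0.947), *Trib3* (0.130) and *Chac1* (0.107). The libraries of *Eif2ak1* and *Ddit3* overlapped on this scale, as did those of *Trib3* and *Chac1*, and the other neighbours did not. In the deficient libraries *Atf4* (219 CPM per kb) stood beside *Phgdh* (195) with overlapping libraries, *Eif2ak1* (62.4) was clear of *Ddit3* (38.6), and *Trib3* (4.35) was above *Ddit4* (2.07). The libraries of *Asns* (362 CPM per kb) were still above those of every other gene of the 10. The levels thus span the range from abundant amino acid enzymes to feedback genes near the limit of detection.

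The other eIF2 kinases did not follow *Eif2ak1* as a group. *Eif2ak3* (PERK, the kinase of the endoplasmic reticulum) was at 5.70, 4.80 and 6.01 CPM in control and 12.3, 9.37 and 7.61 CPM in the deficient libraries, and it rose by 0.82 ± 0.25 SE on the log2 scale (adjusted p = 0.028 by edgeR). *Eif2ak4* (GCN2, the sensor of uncharged tRNA) had a log2 fold change of -0.09 ± 0.16 SE and *Eif2ak2* (PKR, the sensor of double-stranded RNA) of -0.0075 ± 0.12 SE, with overlapping groups in both. Of 16 genes for the other eIF2 kinases, their regulators, eIF2, eIF2B and the phosphatase subunits, 2 were called higher, *Eif2ak3* and *Ppp1r15b*. This share of 12.5% leaves out *Eif2ak1*, counted above among the 10 genes, and is close to the 12.1% of all genes. *Ppp1r15b*, the constitutive phosphatase subunit that reverses eIF2 phosphorylation, was at 349, 335 and 346 CPM in control and 522, 502 and 553 CPM in the deficient libraries (log2 fold change 0.61 ± 0.07 SE, adjusted p = 0.00015 by edgeR). *Ppp1r15a*, the other phosphatase subunit, was higher in every deficient library (0.54 ± 0.13 SE, adjusted p = 0.0095 by edgeR) but did not reach the fold. In the higher direction 5 of the 16 had an unadjusted and 3 an adjusted p under 0.05. None was called lower by edgeR or by DESeq2, although 3 had an unadjusted and also an adjusted p under 0.05 in that direction. The median of the 16 was -0.06, or 0.016 without deficient replicate 2. The count of 2 called higher became 1 without control replicate 2 or 3 or deficient replicate 2, and 1 gene was called lower without deficient replicate 1.

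A wider list of other ATF4 targets held 33 genes, of which 25 were tested, 9 were called higher and 3 lower, against 12.1% and 9.83% of all genes. Their median log2 fold change was 0.14, or 0.22 without deficient replicate 2. Of the 9, 6 were amino acid transporters, a class in which 7 were tested and the remaining one, *Slc38a2*, overlapped between groups (median 0.85). The glycine transporter gene *Slc6a9* was at 1.01, 0.515 and 1.37 CPM in control and 23.3, 22.2 and 19.1 CPM in the deficient libraries. It rose by 4.47 ± 0.31 SE on the log2 scale (adjusted p = 6.3e-06 by edgeR), a pattern of near silence and rise like that of *Trib3*. *Slc1a5* (0.90), which carries glutamine, and *Slc7a1* (0.89), which carries arginine and lysine, rose as well. The remaining transporters called, named after their values were seen, were *Slc1a4* (0.85), *Slc3a2* (0.72) and *Slc7a5* (0.62), the last 2 being the chains of the leucine transporter.

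The 10 enzymes of amino acid and one-carbon metabolism on that list had 1 called higher, 1 called lower and a median of -0.31. *Mthfd2*, the mitochondrial folate enzyme, was at 92.4, 89.4 and 96.4 CPM in control and 244, 208 and 289 CPM in the deficient libraries (log2 fold change 1.41 ± 0.12 SE, adjusted p = 1.8e-05 by edgeR). *Cth*, which makes cysteine from cystathionine, fell by 1.92 on the log2 scale (adjusted p = 0.025 by edgeR). Among regulators and other targets, the stress cytokine gene *Gdf15* (2.95) and the chromatin-associated factor gene *Nupr1* (2.83) rose from under 1 CPM in each control library. The transcription factor gene *Atf3* (-3.42) and the growth factor adaptor gene *Grb10* (-2.61) fell, so known targets of ATF4 moved in both directions in the same libraries.

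Genes for cytosolic aminoacyl-tRNA synthetases, many of which ATF4 is known to activate, were mostly below control without being called. Of 20, 1 was called higher and 2 lower, and the share lower is close to the 9.83% of all genes. The median log2 fold change was -0.29, and 11 lay below control in every library, which 24.0% of all genes did. *Aars* rose (0.63 ± 0.10 SE, adjusted p = 0.0007 by edgeR), and *Dars* (-0.70) and *Rars* (-0.61) fell. The count of 2 became 5 without control replicate 2, and the count of 1 higher became 0 without deficient replicate 3. Of 18 genes of the endoplasmic reticulum listed for the ATF6 and XBP1 branch, its sensors included, 1 was lower, against 9.83% of all genes. This was *Herpud1* (-0.73 ± 0.16 SE, adjusted p = 0.0052 by edgeR), and none was called higher by edgeR or DESeq2. In that list 4 genes had an unadjusted p under 0.05 in the higher direction, and the median was 0.07, or -0.0079 without control replicate 2. The call of *Herpud1* was lost without control replicate 1, a second gene was called lower without deficient replicate 2, and 1 gene was called higher without deficient replicate 1 or 2. The element was present in the promoter windows of 8 of the 27 other ATF4 targets that had one, 5 of 13 synthetase genes and 1 of 13 genes of the eIF2 list. In the endoplasmic reticulum list 1 of 15 genes had it, *Herpud1* itself, so the list is not free of the element. These shares stand against the 4.50% of all genes given above.

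**Figure D3:**
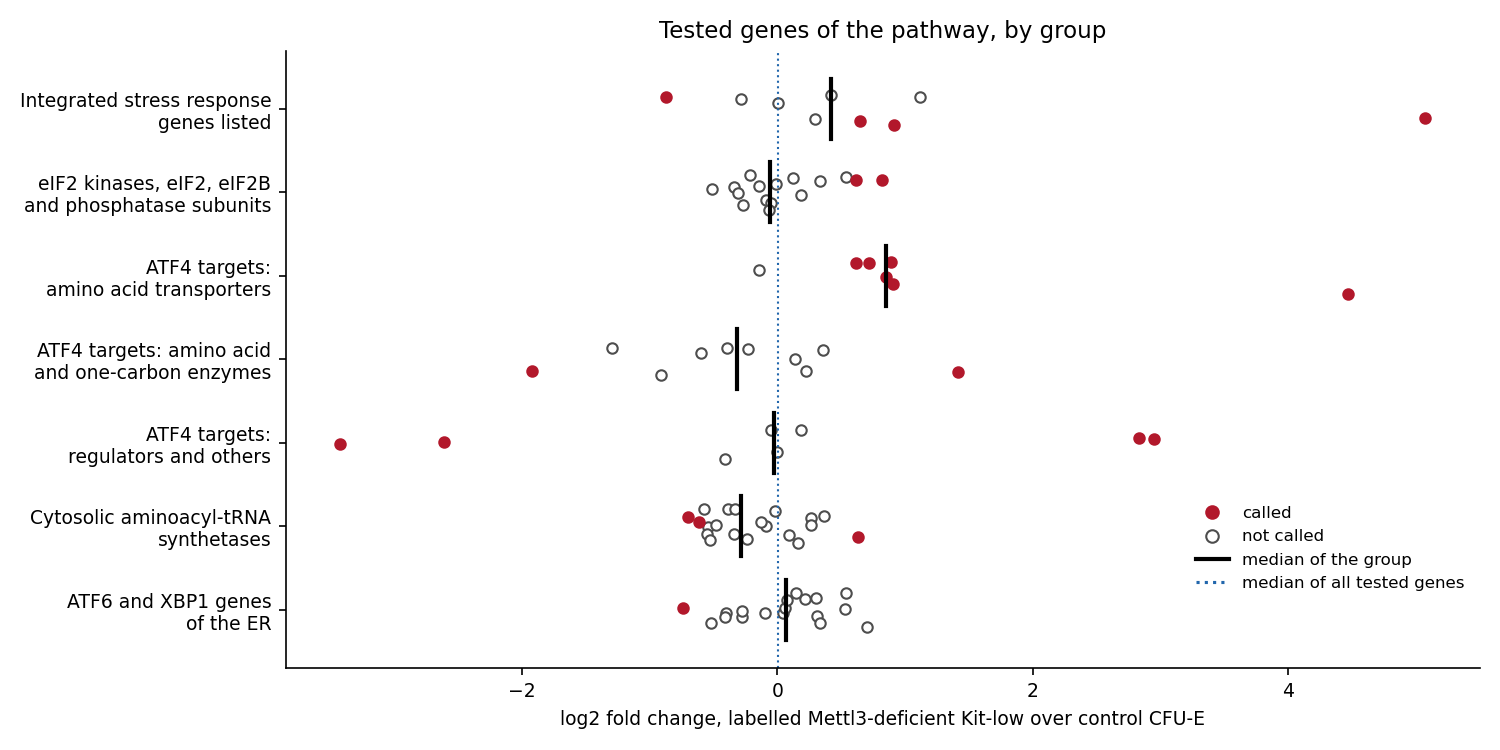
Log2 fold change in the RNA-seq, libraries labelled Mettl3-deficient Kit-low CFU-E over control CFU-E, of each tested gene of the pathway by group, with red points for called genes, open points for genes not called, black bars for group medians and a dotted line for the median of all tested genes. The amino acid transporters have a median of 0.85 and the aminoacyl-tRNA synthetases one of -0.29.

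In the m6A comparison, which asks whose mRNA is captured by the antibody in control CFU-E, none of the 8 genes tested was enriched or depleted in IP over input. A gene was called enriched or depleted at an adjusted p-value under 0.05, and over the 11447 genes tested 7.9% were enriched (904) and 7.86% depleted (900). Among the 8 genes 0 enriched and 1 depleted (*Ddit3*) had an unadjusted p under 0.05, and DESeq2 also called 0 in both directions. With a replicate block *Ddit3* and *Asns* were called depleted, among 1755 of all genes. The sources do not state that the replicate numbers pair IP with input. The median log2 fold change was -0.37 over the 8 genes and 0.06 over all genes. Both IP libraries lay above both inputs in 1 of the 8 genes and below them in 4, against 32.2% and 28.7% of all genes tested. These values are per gene and not per site.

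**Figure D4:**
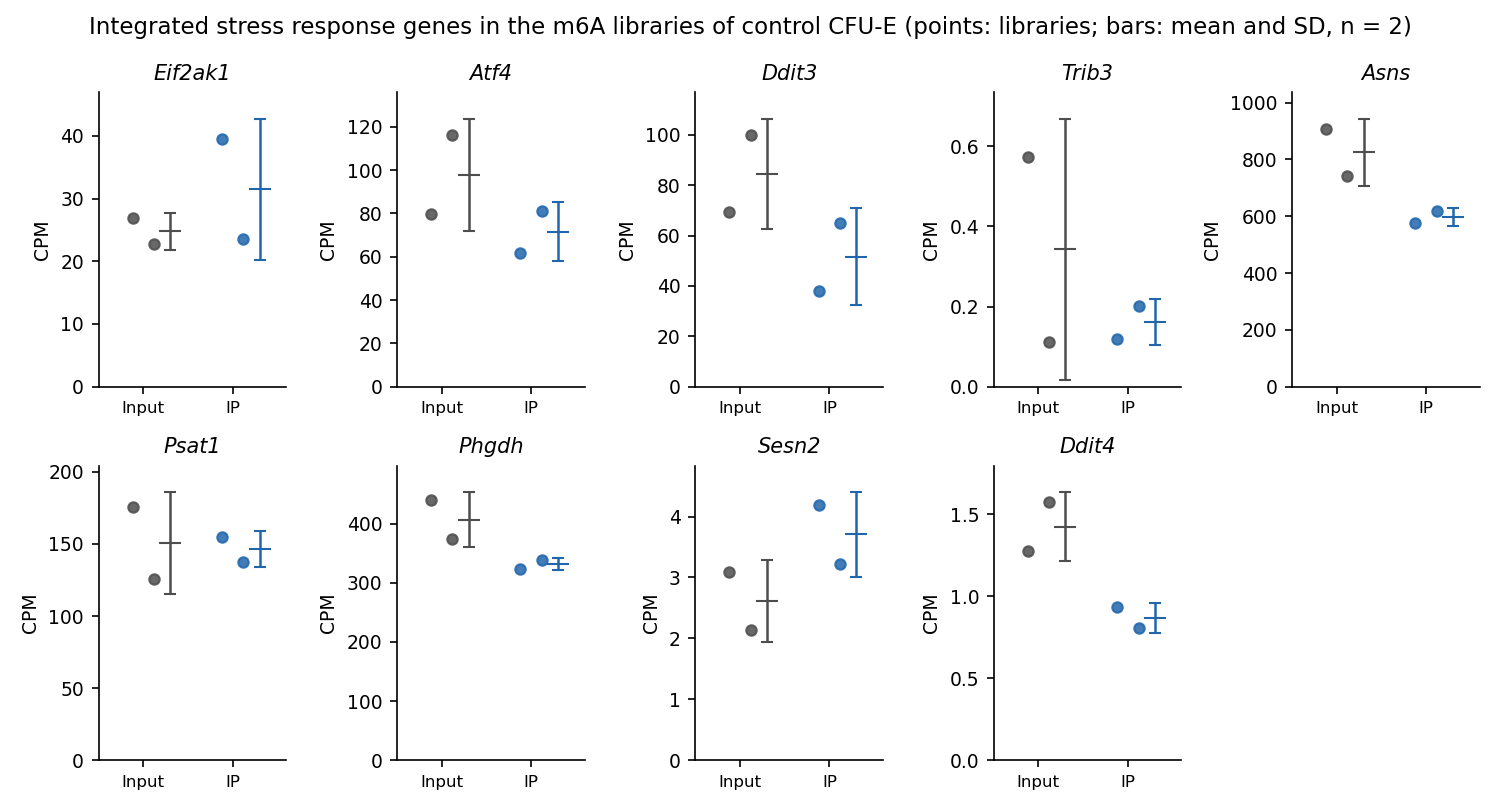
Level in CPM (linear axes from 0) of the 9 integrated stress response genes of the m6A table in the 2 input (grey) and the 2 IP libraries (blue) of control CFU-E, with points for libraries and bars for mean and SD. Ddit3 and Asns lie lower in both IP libraries than in both inputs, and Trib3 was under 1 CPM throughout.

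*Ddit3* was at 69.2 and 99.997 CPM in input and at 38.0 and 65.2 CPM in IP, so both IP libraries were lower. Its log2 fold change of -0.72 ± 0.30 SE had an adjusted p of 0.13 by edgeR. Without IP replicate 2 it was -1.16 and the gene was called depleted, and without IP replicate 1 it was -0.39 and without input replicate 2 -0.43, neither of them called. *Asns* was likewise lower in both IP libraries, at 909 and 743 CPM in input and at 575 and 619 CPM in IP (log2 fold change -0.47 ± 0.23 SE, adjusted p = 0.18 by edgeR).

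*Phgdh* was at 440 and 374 CPM in input and 324 and 339 CPM in IP, and *Ddit4* at 1.28 and 1.57 CPM in input and 0.935 and 0.804 CPM in IP. The IP values of both were below the inputs, with log2 fold changes of -0.30 and -0.70 that were not called. *Atf4* overlapped, at 79.5 and 116 CPM in input and 62.0 and 81.2 CPM in IP (log2 fold change -0.45 ± 0.26 SE, adjusted p = 0.25 by edgeR), and so did *Psat1*, with -0.04, whose sign changed with the scaling (0.11 with library size only and 0.088 with upper-quartile factors). *Sesn2*, at 3.09 and 2.14 CPM in input and 4.20 and 3.22 CPM in IP (0.51), and *Eif2ak1*, at 26.8 and 22.7 CPM in input and 39.4 and 23.5 CPM in IP (0.35), were the 2 genes with positive estimates, and that of *Eif2ak1* was -0.094 without IP replicate 1. *Sesn2* was higher in both IP libraries, and the interval of either gene holds 0. *Trib3* had 13 and 2 counts in input and 5 and 4 in IP and could not be tested, so its capture in control cells is not known at this depth.

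Around these genes, others of the pathway were called, in counts to be read against the 7.9% enriched and 7.86% depleted among all genes. Of the eIF2 list 3 of 16 were enriched and 1 depleted, namely *Impact* (1.79 ± 0.25 SE, adjusted p = 0.001 by edgeR), an inhibitor of GCN2 activation, *Eif2s3x* (0.90), a subunit of eIF2, and *Ppp1r15b* (0.89) on the one side and *Eif2b5* (-1.34), a subunit of the exchange factor eIF2B, on the other. Of 25 other ATF4 targets 1 was enriched, *Mthfd1l* (0.92), and 3 were depleted, *Slc1a5* (-1.09) and the genes of the C/EBP partners *Cebpb* and *Cebpg*. *Cebpb* was at 30.2 and 26.0 CPM in input and 0.144 and 0.201 CPM in IP (log2 fold change -7.38 ± 0.40 SE, adjusted p = 3.5e-06 by edgeR), and *Cebpg* at 65.0 and 77.2 CPM in input and 6.59 and 4.67 CPM in IP (-3.64 ± 0.28 SE, adjusted p = 2e-05 by edgeR). Both partners were low in both IP libraries, while *Atf4* itself overlapped between input and IP. In the RNA-seq of control CFU-E, however, *Cebpb* had only 5, 1 and 0 counts and was too low to be tested. Its level thus differed between the experiments, for a reason that was not tested, and what its input counts come from is not known. Of 20 synthetase genes *Dars* (1.41) and *Tars* (1.17) were enriched and *Farsa* (-1.14) and *Cars* (-0.97) depleted, and of 18 genes of the endoplasmic reticulum *Hspa5* (1.03) and *Herpud1* (0.97) were enriched and *Edem1* (-1.19) and *Calr* (-0.87) depleted. Of these enriched genes, *Dars* and *Herpud1* were lower in the RNA-seq, *Ppp1r15b* was higher, and *Impact*, *Eif2s3x*, *Mthfd1l*, *Tars* and *Hspa5* were not called. Of the depleted genes, *Slc1a5* was higher there, *Cebpb* was not tested and the others were not called.

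The background in the m6A table depends on the scaling. Enriched genes were 50.1% of all calls with TMM factors, 60.6% with library size only and 65.8% with upper-quartile factors, and these scalings moved the median log2 fold change of all genes by 0.16 and 0.13. Without input replicate 1 the enriched genes numbered 164, without IP replicate 1 433, without input replicate 2 571 and without IP replicate 2 1358. Without input replicate 1 the depleted genes numbered 427. None of the 8 genes was called enriched under any alternative run.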

How the data were processed

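RNA-seq and m6A (SLIM-seq) libraries of sorted mouse CFU-E were analysed, 10 of the 16 samples in all. The authors filtered reads with fastp 0.23.4, quantified transcripts with Kallisto 0.48.0 and merged them with tximport, and they deposited estimated counts per gene, not normalized, 1 column per library. Their methods name mm10 as the reference, and the submitters' notes also list GRCm39. Smart-seq2 was primed with oligo-dT. Use of the molecular identifier of the m6A libraries and of strand in the counting is not given in the sources used here, so genes that overlap on opposite strands are uncertain. Columns of samples that were not used numbered 0.

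The expected counts were rounded, which changed nothing, and tested in R 4.3.3 with edgeR 4.0.16 (TMM, filterByExpr, glmQLFit, glmQLFTest), 1 fit per table without a block, and Benjamini-Hochberg adjustment over all genes of the table. The authors used DESeq2, and DESeq2 1.42.0 was run as an alternative. SE is the absolute log2 fold change divided by the square root of F. The fits were tested on simulated data first. Alternatives were other scalings, filters on low counts, fold thresholds, a replicate block and leaving out each library. Depth was 17429262 to 37142742 counts, and replicate spread limits precision except for genes of few counts, where counting error does. CPM use TMM factors.

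The genes and the wider lists were chosen with earlier results of these data known. The text names the 10 genes, all eIF2 kinases, called genes of the eIF2 list, up to 6 called genes with the largest change in each direction in the other pathway lists, *Mettl3*, *Kit* and the 3 genes nearest *Atf4*. Cell type markers, genes on the opposite strand, *Slc38a2* and *Ppp1r15a* are named besides. Coordinates are from GENCODE vM21 on GRCm38 (mm10), promoter windows from RefSeq on GRCm38.p6. Sequences were read in Python 3.11.15 and plots made in matplotlib 3.10.9.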

Additional observations from a re-analysis of the deposited data

How the results depend on the processing

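Of 223 recomputed values of the single genes, 213 kept their side of the threshold and 203 also their sign. The 10 changes of sign were of estimates that were not called, 5 of *Ddit3* in the RNA-seq and 4 of *Psat1* and 1 of *Eif2ak1* in the m6A table. With no fold threshold the 10 genes gave 5 higher and 2 lower, with *Atf4*, *Psat1* and *Asns* added, and against a fold of 1.5 (glmTreat) 1 higher, *Trib3*, and 0 lower. Without a fold threshold 2104 of all 11979 genes tested were higher and 2024 lower, the counts against which those of the 10 genes are to be read. The eIF2 list then had 3 higher and 3 lower, the synthetases 3 higher and 11 lower, and the endoplasmic reticulum genes 2 higher and 4 lower. Under glmTreat all genes numbered 665 higher and 482 lower, and the eIF2 list, the synthetases and the endoplasmic reticulum genes had 0 higher and 0 lower. With library size only the synthetases had 1 lower and a median of -0.23. With upper-quartile factors the eIF2 list had 1 higher, the synthetases 4 lower, and all genes enriched in IP numbered 1451.

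The replicate numbers did not pair the RNA-seq libraries (correlations of same-numbered deviations 0.03, -0.02 and -0.07), nor did every library correlate best with its own number. In the m6A table the correlation was 0.21 for same and -0.21 for crossed numbers. With 2 libraries per group these values differ only in sign, so they cannot decide whether the m6A numbers pair. With the replicate block, the RNA-seq had 1370 genes higher and 1125 lower and the eIF2 list 1 higher, and the m6A table had 1783 enriched and 1755 depleted genes and 2 of the 10 genes depleted, *Ddit3* (-0.74) and *Asns* (-0.46). It changed no other call of the 10 genes.

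Leaving out each library in turn gave ranges of 2 to 3 of the 10 genes higher and 1 to 1 lower, and a median of 0.37 to 0.56. The eIF2 list had 1 to 2 higher and 0 to 1 lower, the synthetases 0 to 1 higher, 2 to 5 lower and a median of -0.32 to -0.22, and the endoplasmic reticulum genes 0 to 1 higher and 0 to 2 lower. All genes enriched in IP numbered 164 to 1358 and depleted 427 to 968, and the 10 genes had 0 to 1 depleted. A group left with 1 library is assumed to vary like the other. The cause of these differences was not tested. Depth limits *Chac1*, *Trib3* in the m6A table and *Ddit4*.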
